A study of Mus musculus with 14 samples.

Results

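The 30 genes described here encode the enzymes of the tricarboxylic acid (TCA) cycle, the enzymes that fill and drain it, and the carriers that move its intermediates across the inner mitochondrial membrane. They were listed by name, with succinate dehydrogenase set aside. The rule uses no measured value, but the list was chosen with earlier results of these data known. All 30 were found among 24972 genes in the deposited table, and all 30 were among the 13212 genes abundant enough to test. The RNA, selected for poly(A), came from the ventricles of male C57BL/6N mice after transverse aortic constriction (TAC), an operation that narrows the aorta and puts the left ventricle under pressure, or after a sham operation. The mice were operated on when 9 to 10 weeks old. At 2 weeks after surgery, echocardiography picked 30 TAC mice with an ejection fraction of 40 to 60% and 10 sham mice with normal function. Every mouse then received an AAV2/9 virus by tail vein, carrying either JP2NT, an N-terminal fragment of junctophilin-2, or GFP as the control, and hearts were taken 8 weeks after surgery, 6 weeks after the virus. The 4 groups are Sham+GFP (3 libraries), TAC+GFP (4), Sham+JP2NT (3) and TAC+JP2NT (4), the last pair being titled Sham+NT and TAC+NT in the labels. The series title names the question, whether JP2NT given as gene therapy changes hypertrophy and heart failure.

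The TCA cycle runs in the mitochondrial matrix, where acetyl-CoA from fatty acids, pyruvate and ketone bodies is oxidised and the electrons pass to NADH and on to the respiratory chain. The heart draws most of its ATP from this route. Anaplerotic enzymes return carbon to the cycle, and the malate-aspartate shuttle carries the electrons of cytosolic NADH into the matrix, since NADH itself does not cross the inner membrane.

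Values are the deposited signal after a joint rescaling over all libraries, in units of roughly 1 read. The value of 1 read was only estimated, as the commonest low value of a library, at 0.69 to 1.28 units before rescaling. That estimate would put the libraries at about 8650195 to 14460869 gene-assigned reads. By these estimated reads, Sham+JP2NT replicates 1 and 2 were almost as alike as counting error allows. Over genes averaging at least 50 reads the variance ratio was 1.22, against 1.73 to 7.24 in the other 17 pairs within groups. Over genes averaging at least 5000 reads it was 1.86, against 11 to 235. The 2 libraries were counted as 1 sample, so n = 2 in that group and 13 samples entered the tests. Whether each library is a separate mouse is not in the labels, and the p-values measure only the spread between these samples, which may be technical. On the first principal component (50.2% of the variance) TAC+JP2NT replicate 4 lay at -5.58, apart from the other TAC+JP2NT libraries (20.2 to 24.1), the TAC+GFP libraries (32.2 to 42.9) and the sham samples (-42.1 to -38.9). For some results, values without it are given as well.

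Measured per kilobase of exon, so that genes can be compared, Mdh1 was the most abundant of the 30 in Sham+GFP hearts at 17832, followed by Idh2 at 15187, Mdh2 at 14530.0, Ogdh at 10558 and Cs at 8043. At the other end stood Pck2 at 36.1, Slc25a1 at 47.4 and Me2 at 61.2 per kilobase. The genes of the cycle proper and of the malate-aspartate shuttle thus filled the upper part of the order. Most anaplerotic, citrate export and dicarboxylate carrier genes filled the lower part. In TAC+GFP hearts Idh2 stood first at 14029 and Mdh1 second at 12460 per kilobase.

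**Figure D1:**
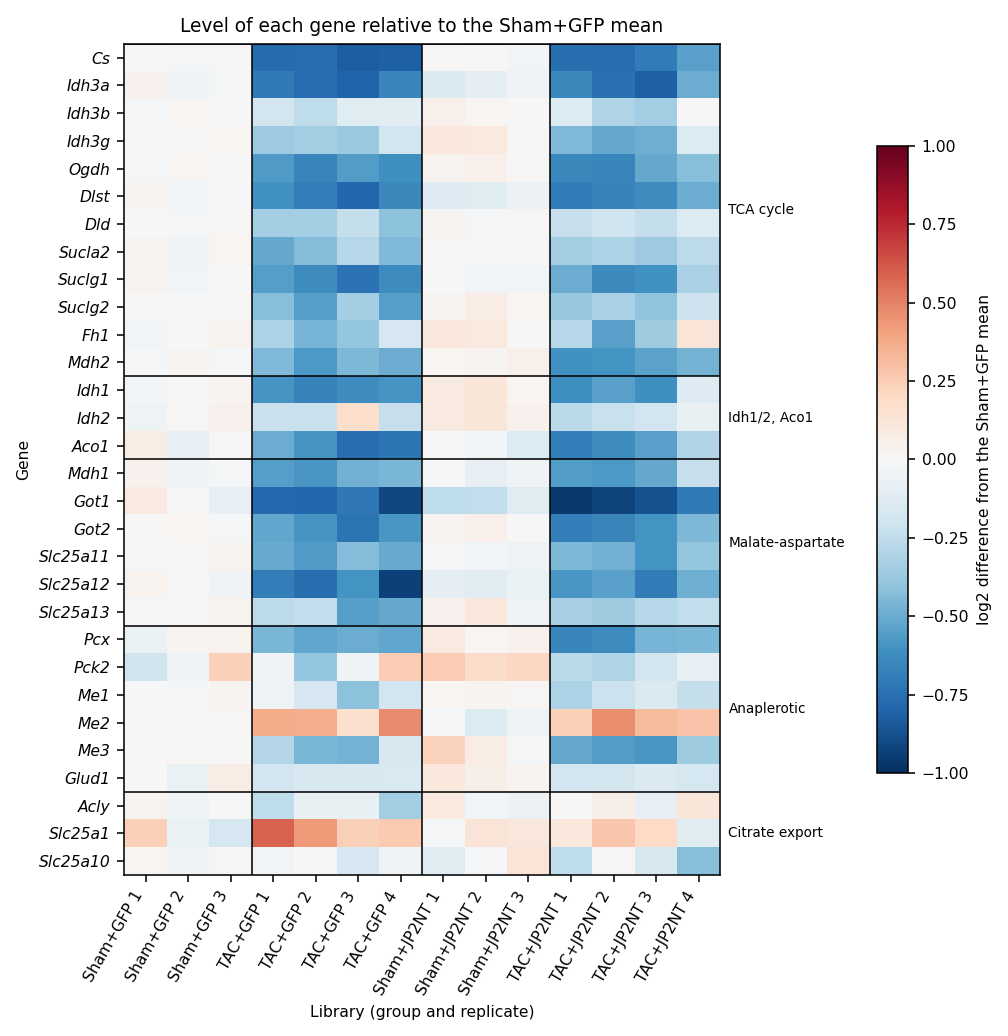
Log2 difference of each gene (rows, grouped by role) from its Sham+GFP mean in each of the 14 libraries (columns), blue for lower and red for higher. Most rows are blue across all 8 TAC libraries, Me2 is red in all 8, and TAC+JP2NT replicate 4 is the palest TAC library for many genes.

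The first comparison asks how 8 weeks of constriction changed these genes under the control virus. Most of them fell together and modestly. Of the 30, 23 were lower in TAC+GFP than in Sham+GFP and 2, Me2 and Slc25a1, were higher (limma, Benjamini-Hochberg adjusted p under 0.05 over all 13212 genes). The same test called 24.8% of all genes lower and 23.3% higher, 48.1% together. The median log2 difference was -0.44 over the 30 genes and -0.01 over all genes. No gene changed 2-fold, and 10 fell at least 1.5-fold. Groups did not overlap for 25 genes that were lower in every TAC+GFP library and 2 that were higher in every one, against 27.8% and 25.3% of all genes. Of the 25 calls, 21 held in all 27 alternative analyses, and the other 4 are Fh1, Me1, Glud1 and Slc25a1.

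Under JP2NT the same surgery lowered 22 of the 30 genes and raised 1, Me2 (limma, adjusted p under 0.05). The background there was 15.8% of all genes lower and 16.1% higher, 31.9% together, and the median log2 difference was -0.43 over the 30 genes against 0.00 over all genes. In 24 genes every TAC+JP2NT library was below every Sham+JP2NT sample and in 1 every one was above, against 25.2% and 24.5% of all genes. The 2 surgery comparisons share no libraries, but the joint rescaling and the spread shared by all groups link their tests. The 22 genes lowered under JP2NT were all among the 23 lowered under GFP, Me2 was higher in both, and 29 of the 30 differences had the same sign. Across the 30 genes the 2 sets of log2 differences had a Pearson r of 0.857 and a Spearman rho of 0.817, given as a description over genes that share their libraries. Of the 23 calls under JP2NT, 20 held in all 27 alternative analyses, the others being Dld, Me1 and Me2.

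**Figure D2:**
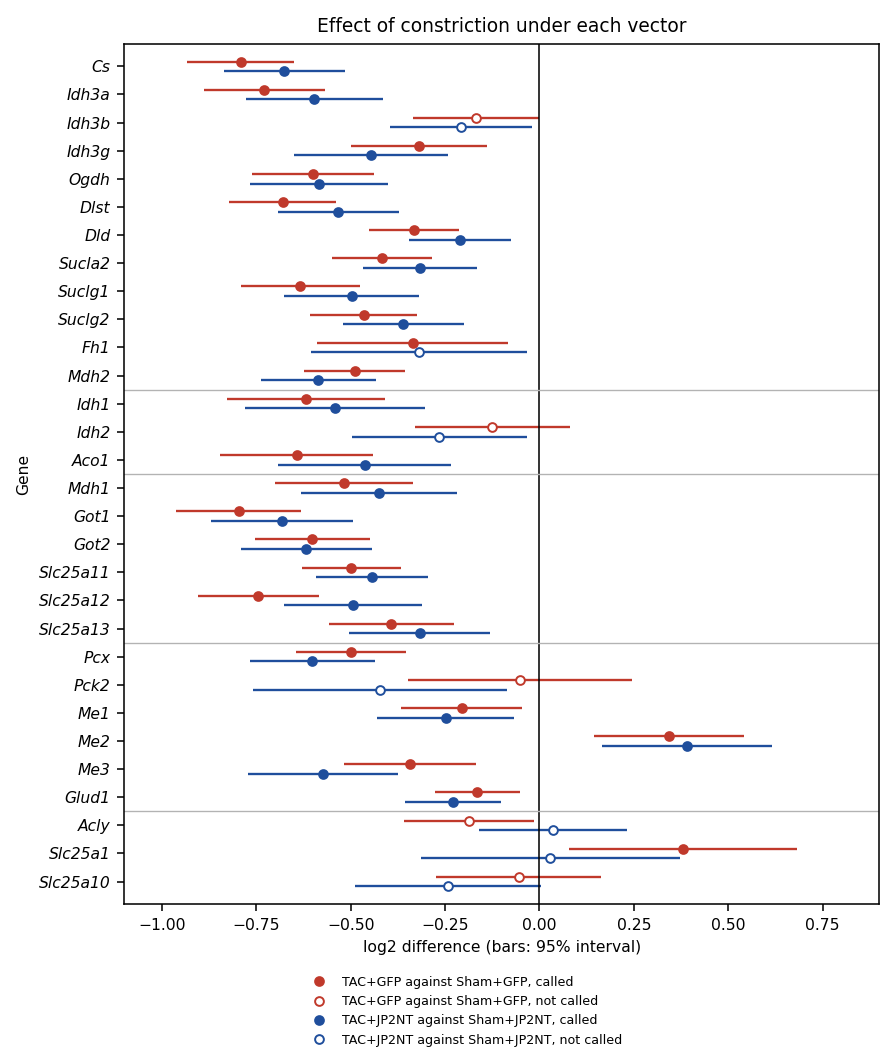
Log2 difference between TAC and sham hearts with its 95% interval for each gene, under GFP (red) and under JP2NT (blue), filled where the adjusted p was under 0.05. The values run from -0.80 (Got1 under GFP) to 0.39 (Me2 under JP2NT), and nearly all filled points lie left of 0.

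Among the 12 TCA cycle enzymes, 11 fell under GFP (median log2 difference -0.48) and 10 under JP2NT (median -0.47), and none rose. Citrate synthase (Cs, chr10:128337734-128362479, plus strand, GRCm38), which joins acetyl-CoA to oxaloacetate in the first step, had the most marked decrease of the 12. It read 23572, 23279 and 23753 in the Sham+GFP libraries and 13830.0, 13887, 13312 and 13369 in the TAC+GFP libraries. The JP2NT values were 23664, 23445 and 23095 in sham hearts and 13945, 13878, 14497 and 16176 in TAC hearts. The groups of each surgery lay far apart, with TAC+JP2NT replicate 4 the highest of the 8 TAC libraries. The mean went from 23535 ± 239 (SD, n = 3) to 13599.7 ± 301 (SD, n = 4) under GFP, 1.73-fold lower (log2 difference -0.79, SE 0.066, adjusted p = 7.58e-07), and was 1.6-fold lower under JP2NT (adjusted p = 4.38e-05).

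Next came isocitrate dehydrogenase. The NAD-dependent enzyme is built of a catalytic subunit, Idh3a, with Idh3b and Idh3g. Idh3a (chr9:54586334-54604661, plus strand) read 11502, 10858 and 11079 in Sham+GFP and 6839.9, 6582, 6396 and 7088 in TAC+GFP libraries, against 10077, 10407 and 10868 in Sham+JP2NT and 7126, 6653, 6313 and 7919.5 in TAC+JP2NT libraries. All TAC libraries were below all sham libraries, and Idh3a fell 1.66-fold under GFP (adjusted p = 3.9e-06) and 1.51-fold under JP2NT (adjusted p = 0.000247). The other subunits moved less. Idh3g fell under both vectors, at log2 differences of -0.32 (adjusted p = 0.00621) and -0.45 (adjusted p = 0.00333), while Idh3b, at -0.17 (adjusted p = 0.0893) and -0.21 (adjusted p = 0.0847), passed the test under neither vector. Without TAC+JP2NT replicate 4, Idh3b passed it under both, at -0.17 (adjusted p = 0.0307) and -0.29 (adjusted p = 0.00684).

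The oxoglutarate dehydrogenase complex turns oxoglutarate into succinyl-CoA. Its E1 subunit Ogdh, its E2 subunit Dlst and its E3 subunit Dld, which also serves pyruvate dehydrogenase, all fell in both comparisons. Dlst (chr12:85110833-85134845, plus strand) read 12218, 11732 and 11952 in Sham+GFP, 7884, 7438, 6940.1 and 7640.5 in TAC+GFP, 10965, 11017 and 11513 in Sham+JP2NT and 7379, 7530.3, 7746 and 8493 in TAC+JP2NT. The TAC and sham libraries were separate under each vector, at a 1.6-fold lower mean under GFP (adjusted p = 2.54e-06) and a 1.45-fold lower one under JP2NT (adjusted p = 0.000223). Ogdh fell 1.52-fold and 1.5-fold (adjusted p = 2.12e-05 and 0.000282). Dld, the shared subunit, fell least of the 3, 1.26-fold and 1.16-fold (adjusted p = 0.000236 and 0.0207). Its call under JP2NT was lost without Sham+JP2NT replicate 3 (adjusted p = 0.1), a setting that leaves 1 sample in that group, assumed to vary like the others.

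Succinyl-CoA ligase yields a nucleoside triphosphate directly, with a shared alpha subunit (Suclg1) and a beta subunit for ATP (Sucla2) or GTP (Suclg2). All 3 fell under both vectors, with log2 differences under GFP and JP2NT of -0.63 and -0.50 for Suclg1, -0.47 and -0.36 for Suclg2, and -0.42 and -0.32 for Sucla2 (adjusted p at most 0.00399). Mitochondrial malate dehydrogenase, Mdh2, which closes the cycle, fell too, at -0.49 and -0.59 (adjusted p = 2.55e-05 and 8.38e-05). Fumarase, Fh1, read 6994, 7085 and 7278 in Sham+GFP and 5703, 5143, 5440.4 and 6334 in TAC+GFP libraries and fell 1.26-fold (adjusted p = 0.0294). That call was lost without any 1 of Sham+GFP replicates 1, 2 and 3 and TAC+GFP replicates 2 and 3 (adjusted p 0.0568 to 0.0804). Under JP2NT it read 7672, 7627 and 7138 in sham and 5832, 4895, 5549 and 7775 in TAC libraries, replicate 4 of the latter lying above all 3 sham libraries. The log2 difference of -0.32 did not pass (adjusted p = 0.0834), and was -0.47 without that library (adjusted p = 0.00129).

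**Figure D3:**
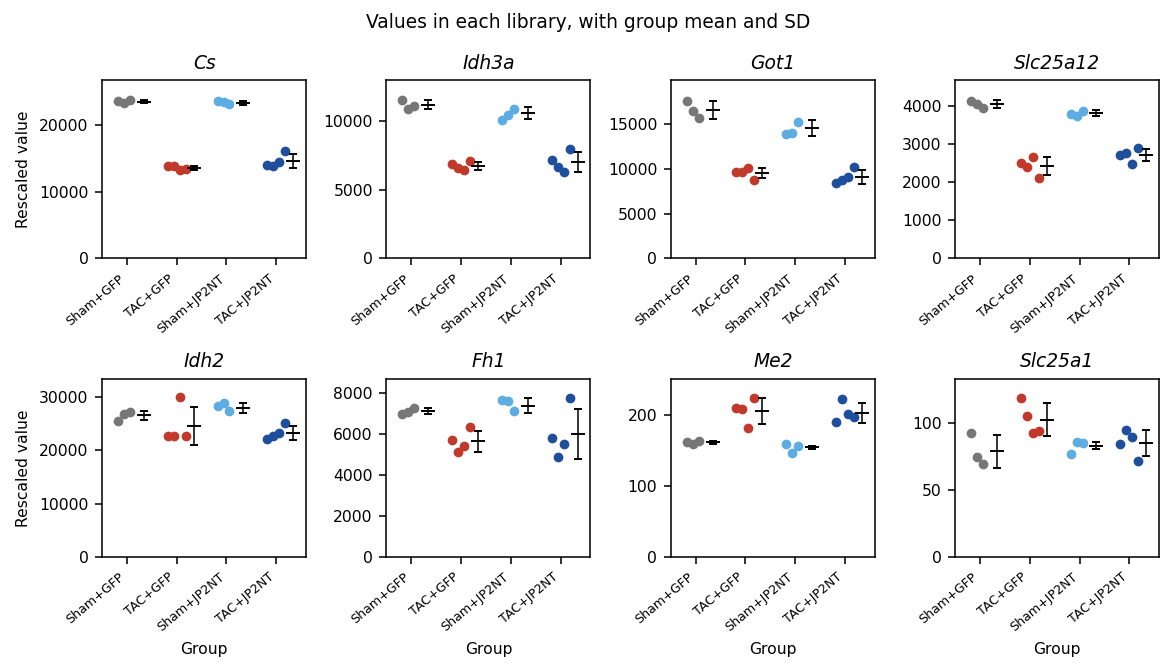
Rescaled values of 8 genes in every library, replicates in order within a group, with the group mean and SD (black). The SD of Sham+JP2NT counts replicates 1 and 2 as 1 sample. TAC and sham points are apart for Cs, Idh3a, Got1, Slc25a12 and Me2, while single TAC libraries reach the sham range for Idh2 (TAC+GFP replicate 3) and Fh1 (TAC+JP2NT replicate 4).

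Promoter letters were looked up for the genes, since so many moved together. RefSeq windows (GRCm38.p6) of 300 bases, 250 before and 50 after a transcript start, were matched for 28 of the 30, 36 windows in all. Idh3a and Me2 had no entry. Both strands were searched. The ETS core CCGGAAG, bound by GABPA among other factors, was in 4 windows, those of Idh3b, Dlst, Glud1 and Idh3g (11.11% of the 36, against 8.86% of all 32851 windows). They are printed with 11 bases on each side, 5′ to 3′ on the strand of the gene, with the core or its reverse complement CTTCCGG in capitals, to set the same letters beside the different responses of their genes.
Idh3b, chr2:130284439-130284467, minus strand: gaccgcgctcgCTTCCGGcgtcacttccc
Dlst, chr12:85110823-85110851, plus strand: ggccggtctcaCTTCCGGttgctgccggg
Glud1, chr14:34310489-34310517, plus strand: acgggaccgacCTTCCGGgccgcggccgc
Idh3g, chrX:73786984-73787012, minus strand: tgctctaggcaCCGGAAGggggcgtaaga
The 4 genes holding it did not share 1 size of response, with log2 differences under GFP of -0.68 for Dlst, -0.32 for Idh3g, -0.17 for Idh3b (not called) and -0.16 for Glud1. The NRF1 core GCATGCGC was in 3 windows of Glud1 and Ogdh (8.33%, against 2.71% of all windows), the E-box CACGTG in 6 windows of Ogdh, Pcx, Slc25a1 and Slc25a13 (16.67% against 7.15%), and the YY1 core AAGATGGC in 1 of Idh3g (2.78% against 2.75%). Overlapping windows of Ogdh hold the same sites more than once. Counted by gene, the NRF1 core was in 2 of 28 and the E-box in 4 of 28, against 3.05% and 8.09% of all genes with windows. The extended binding element of oestrogen-related receptors, TCAAGGTCA, and the SREBP element TCACNCCAC were in none of the 36 windows (0.42% and 1.24% of all windows). Windows of 1 gene overlap, a match is only a description of these letters, and no match says only that these letters are not in this window.

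The NADP-dependent isocitrate dehydrogenases and cytosolic aconitase do chemistry akin to the cycle, partly outside the matrix. Of the 3, Idh1 and Aco1 fell under both vectors and Idh2 passed the test under neither. Idh1, the cytosolic and peroxisomal enzyme (chr1:65158616-65186500, minus strand), read 805, 821 and 836 in Sham+GFP, 544, 516, 533 and 544 in TAC+GFP, 875, 893 and 833 in Sham+JP2NT and 535, 563, 535 and 749 in TAC+JP2NT libraries. The TAC+GFP values were tightly grouped and far below sham, a 1.54-fold decrease (adjusted p = 0.000143), and of the TAC+JP2NT libraries replicate 4 stood well above the other 3 within a 1.46-fold decrease (adjusted p = 0.00253). Aco1, which doubles as iron regulatory protein, read 779, 698 and 740.5 in Sham+GFP, 522, 492, 435 and 446 in TAC+GFP, 739, 724 and 671 in Sham+JP2NT and 459.6, 476, 506 and 600.2 in TAC+JP2NT. Its groups did not overlap between surgeries, and it fell 1.56-fold under GFP and 1.38-fold under JP2NT (adjusted p = 7.75e-05 and 0.00522).

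Idh2, the mitochondrial enzyme that makes NADPH in the matrix (chr7:80094846-80115392, minus strand), read 25535, 26733 and 27234 in Sham+GFP and 22706, 22737, 29888 and 22591 in TAC+GFP libraries. Replicates 1, 2 and 4 of TAC+GFP were nearly equal and below sham, and replicate 3 was above every sham library. The log2 difference was -0.12 (95% interval -0.33 to 0.08, adjusted p = 0.3), and -0.22 without replicate 3 (adjusted p = 0.0172). Under JP2NT it read 28268, 28816 and 27279.6 in sham and 22001, 22716, 23144 and 25138 in TAC libraries, with no overlap, at -0.27 (adjusted p = 0.0761). This difference passed the test without TAC+JP2NT replicate 4 (-0.32, adjusted p = 0.0312) and without TAC+GFP replicate 3 (adjusted p = 0.0142).

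All 6 genes of the malate-aspartate shuttle fell under both vectors, with a median log2 difference of -0.56 under GFP and -0.47 under JP2NT, and no alternative analysis removed any of these calls. Got1, the cytosolic aspartate aminotransferase (chr19:43499752-43524605, minus strand), had the steepest decrease of the 30 genes. It read 17562, 16442 and 15582 in Sham+GFP and 9641, 9571, 10081 and 8768 in TAC+GFP libraries, and 13869, 13916 and 15192 in Sham+JP2NT and 8437, 8682, 9027 and 10137 in TAC+JP2NT libraries. Sham values were higher under GFP than under JP2NT without overlap, and all TAC values lay far below both. The decrease was 1.74-fold under GFP (log2 -0.80, SE 0.078, adjusted p = 2.65e-06) and 1.61-fold under JP2NT (log2 -0.68, SE 0.088, adjusted p = 0.000124). Got2, its mitochondrial partner, read 17289, 17533 and 17168 in Sham+GFP, 12112, 11542, 10468 and 11606 in TAC+GFP, 17648, 17914 and 17397 in Sham+JP2NT and 10810.5, 10955, 11449 and 12722 in TAC+JP2NT. Its TAC libraries were again all below the shams, by 1.52-fold and 1.53-fold in the means (adjusted p = 1.32e-05 and 0.000139).

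The aspartate-glutamate carriers Slc25a12 and Slc25a13, which respond to calcium, export aspartate from the matrix. Slc25a12 (chr2:71271063-71367749, minus strand), the form typical of heart and brain, read 4133, 4058 and 3933 in Sham+GFP and 2499, 2392, 2665 and 2118 in TAC+GFP libraries. Under JP2NT the values were 3772, 3741 and 3866 in sham and 2700.0, 2766, 2486 and 2883 in TAC libraries. TAC and sham libraries did not overlap, and the decrease was 1.68-fold under GFP (adjusted p = 3.28e-06) and 1.41-fold under JP2NT (adjusted p = 0.000827). Smaller decreases were seen in Slc25a13 (log2 differences -0.39 and -0.32), the oxoglutarate-malate carrier Slc25a11 (-0.50 and -0.44) and cytosolic malate dehydrogenase, Mdh1 (-0.52 and -0.43, adjusted p at most 0.0138).

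The 6 anaplerotic and cataplerotic enzymes split, with 4 lower and 1 higher under each vector and a median log2 difference of -0.19 under GFP and -0.34 under JP2NT. Pyruvate carboxylase, Pcx (chr19:4510472-4621752, plus strand), which makes oxaloacetate from pyruvate, read 632, 671 and 677 in Sham+GFP, 479, 459, 468 and 461 in TAC+GFP, 701, 668 and 680.2 in Sham+JP2NT and 419, 427, 477 and 479.7 in TAC+JP2NT. Sham and TAC libraries were apart under each vector, and Pcx fell 1.41-fold and 1.52-fold (adjusted p = 4.33e-05 and 0.000124). The 3 malic enzymes, which interconvert malate and pyruvate, went different ways. Me3, the NADP-dependent mitochondrial form, read 1410.2, 1425 and 1417 in Sham+GFP, 1158, 1035, 1024 and 1269.9 in TAC+GFP, 1663, 1490.1 and 1407 in Sham+JP2NT and 995, 961, 948 and 1106 in TAC+JP2NT, and fell 1.27-fold and 1.49-fold (adjusted p = 0.00313 and 0.000525). Me2, the mitochondrial form that uses NAD, read 162, 159 and 163 in Sham+GFP, 209.5, 209, 181 and 224 in TAC+GFP, 159, 146 and 156 in Sham+JP2NT and 191, 223, 201 and 197 in TAC+JP2NT. Every TAC library was above every sham library, so Me2 rose while Me3 fell, 1.27-fold under GFP (adjusted p = 0.00693) and 1.31-fold under JP2NT (adjusted p = 0.0117). The call under JP2NT was lost without Sham+JP2NT replicate 3 (log2 0.39, adjusted p = 0.08).

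Me1, the cytosolic malic enzyme, fell 1.15-fold under GFP (adjusted p = 0.0334) and 1.19-fold under JP2NT (adjusted p = 0.0366). These calls were lost without any 1 of the 3 Sham+GFP libraries or TAC+GFP replicate 3 (adjusted p 0.066 to 0.0882), and without Sham+JP2NT replicate 3 (0.127) or TAC+JP2NT replicate 1 (0.0654). Glutamate dehydrogenase, Glud1, fell 1.12-fold (adjusted p = 0.018, and 0.0876 without Sham+GFP replicate 3) and 1.17-fold (adjusted p = 0.00989). Pck2, the mitochondrial phosphoenolpyruvate carboxykinase, stood at log2 differences of -0.05 (adjusted p = 0.781) and -0.42 (adjusted p = 0.0537). The latter passed when 1 of Sham+GFP replicate 1 or 3, TAC+GFP replicate 2 or 4, Sham+JP2NT replicate 2 or TAC+JP2NT replicate 4 was left out (adjusted p 0.0256 to 0.0453).

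None of the 3 genes for citrate export and dicarboxylate transport passed the test as lower. ATP citrate lyase, Acly, splits exported citrate in the cytosol. It read 546, 517 and 534 in Sham+GFP and 446, 506, 507 and 419 in TAC+GFP libraries, with the TAC+GFP libraries all slightly lower (log2 -0.19, adjusted p = 0.0699, and 0.0422 or 0.0391 without TAC+GFP replicate 2 or 3). Under JP2NT Acly read 569.5, 523 and 510.0 in sham and 531, 554, 503 and 579 in TAC libraries, which overlapped (log2 0.04, adjusted p = 0.797).

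The mitochondrial citrate carrier, Slc25a1 (chr16:17925223-17928219, minus strand), read 92.7, 74.7 and 69.5 in Sham+GFP and 119, 106, 92.7 and 94 in TAC+GFP libraries, the highest sham library meeting the lowest TAC library. It rose 1.3-fold (adjusted p = 0.0373), a call lost without Sham+GFP replicate 2 or 3 or TAC+GFP replicate 1 or 2 (adjusted p 0.0785 to 0.161). Under JP2NT it read 77.1, 85.9 and 85 in sham and 84.4, 95.2, 90 and 72 in TAC libraries (log2 0.03, 95% interval -0.31 to 0.37). The dicarboxylate carrier, Slc25a10, read 240.5, 232 and 239.8 in Sham+GFP, 233, 237, 212 and 232 in TAC+GFP, 218, 235 and 261 in Sham+JP2NT and 198, 239.9, 212 and 176 in TAC+JP2NT. Its surgery groups overlapped under both vectors, at log2 -0.06 (adjusted p = 0.678) and -0.24 (adjusted p = 0.125, and -0.33 with adjusted p = 0.0396 without TAC+JP2NT replicate 2). The summed level of 8 adipocyte markers was 595 to 632 in Sham+GFP, 362 to 489 in TAC+GFP, 636 to 759 in Sham+JP2NT and 250 to 837 in TAC+JP2NT, and up to 3 of the 8 were at 0 in a library. Most of that sum was Fasn, fatty acid synthase, at a mean of 563 in Sham+GFP and 292 in TAC+GFP, and it fell (adjusted p = 0.000626). Adipoq was at 7 and 15.2, Cfd at 18.4 and 87.2 and Cidec at 8.9 and 15.5. These 3 were low, higher in the mean and did not pass the test. Of 6 markers tested 4 had a positive and 2 a negative log2 difference under GFP, with a median of 0.55. The lowest, -1.59, belonged to a marker not named here, which did not pass the test. The part of fat cells in the values of Acly, Slc25a1 and Slc25a10 was not tested.

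Within single libraries, log2 ratios of related genes show unequal change free of library scaling. The ratio of Idh2 to Idh1 was 5.01 ± 0.022 (SD, n = 3) in Sham+GFP and 5.51 ± 0.21 (n = 4) in TAC+GFP, higher in all 4 TAC libraries, a difference of 0.49 (two-sided exact permutation p = 0.0286). That of Me3 to Me2 was 3.13 ± 0.025 and 2.44 ± 0.09, lower in all 4, a difference of -0.69 (exact permutation p = 0.0286). Under JP2NT the Me3 to Me2 difference was -0.96 (exact permutation p = 0.0667) and that of Idh2 to Idh1 0.28 (exact permutation p = 0.133). These were among 7 gene pairs and 28 comparisons, and the lowest Benjamini-Hochberg adjusted p was 0.308. The smallest p such tests can give is 0.0286 for 4 against 3 or 4 samples, 0.0667 for 4 against 2 and 0.1 for 2 against 3. With these limits no adjusted p over the 28 comparisons could have been under 0.05. The adjusted values therefore cannot tell whether a ratio changed. The ratios of Mdh2 to Mdh1 and of Sucla2 to Suclg2 differed by 0.03 and 0.05 under GFP (exact permutation p = 0.571 and 0.429). Under JP2NT that of Mdh2 to Mdh1 differed by -0.16, with no overlap between TAC and sham samples (exact permutation p = 0.133), and that of Sucla2 to Suclg2 by 0.04 (exact permutation p = 0.267).

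**Figure D4:**
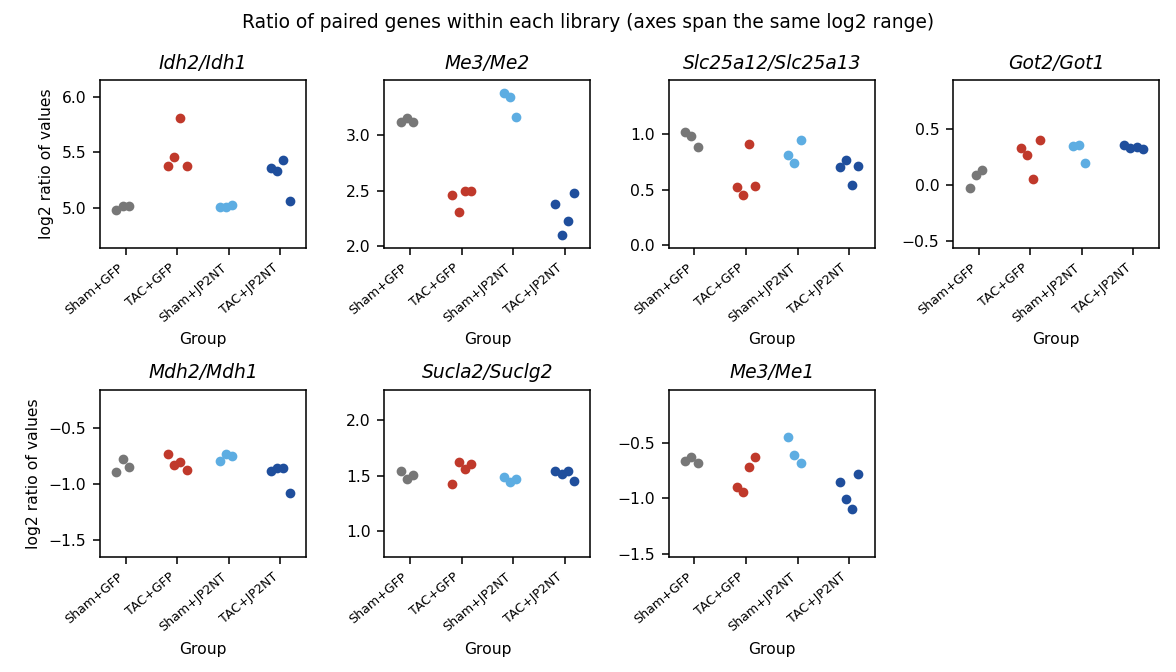
Log2 ratio of 2 related genes within each library, for 7 pairs, by group, on axes of equal span. Idh2/Idh1 is higher and Me3/Me2 lower in every TAC library than in any sham library, while Mdh2/Mdh1 and Sucla2/Suclg2 overlap between TAC+GFP and Sham+GFP.

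The comparison of TAC+JP2NT with TAC+GFP asks whether the gene therapy altered these genes in overloaded hearts. None of the 30 was called (limma, adjusted p under 0.05), where 3.4% of all genes were lower and 2.75% higher, 6.15% together. The median log2 difference was 0.03, and 0.00 over all genes. At an unadjusted p under 0.05 there were 4, all higher with JP2NT. Acly stood at 0.21 (95% interval 0.05 to 0.37, adjusted p = 0.107), Slc25a12 at 0.17 (0.02 to 0.31), Suclg2 at 0.14 (0.01 to 0.27) and Dld at 0.13 (0.02 to 0.24). For all 4, TAC+JP2NT replicate 4 was the highest library of its group, and these values include it. Dld alone had every TAC+JP2NT library above every TAC+GFP library, with 4345, 4352, 4652 and 4138 in TAC+GFP and 4685, 4794, 4659 and 4996 in TAC+JP2NT, where 5.25% of all genes did so, and none of the 30 was lower in every one, against 5.41% of all genes. For 29 of the 30 genes the 95% interval lay within 0.5 of 0 on the log2 scale, and for 22 within 0.3. The exception, Slc25a1, stood at -0.26 (95% interval -0.54 to 0.01).

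In sham hearts, too, no gene of the 30 was called between vectors (limma, 0 at adjusted p under 0.05 and 0 at an unadjusted p under 0.05), nor was any other of the 13212 (0%). Over all genes 374 were lower and 207 higher at an unadjusted p under 0.05. Of the 30, 6 were lower and 3 higher in every Sham+JP2NT sample than in any Sham+GFP library, against 17.7% and 12.5% of all genes. Furthest from 0 were Got1 at -0.18 (95% interval -0.38 to 0.01) and Pck2 at 0.21 (-0.14 to 0.57). In the interaction of surgery and vector none of the 30 was called, where 0.0378% of all genes were lower, 0.0378% higher and 0.0757% either, and Slc25a12 alone had an unadjusted p under 0.05 (0.25, 95% interval 0.01 to 0.49, limma adjusted p = 0.426).

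**Figure D5:**
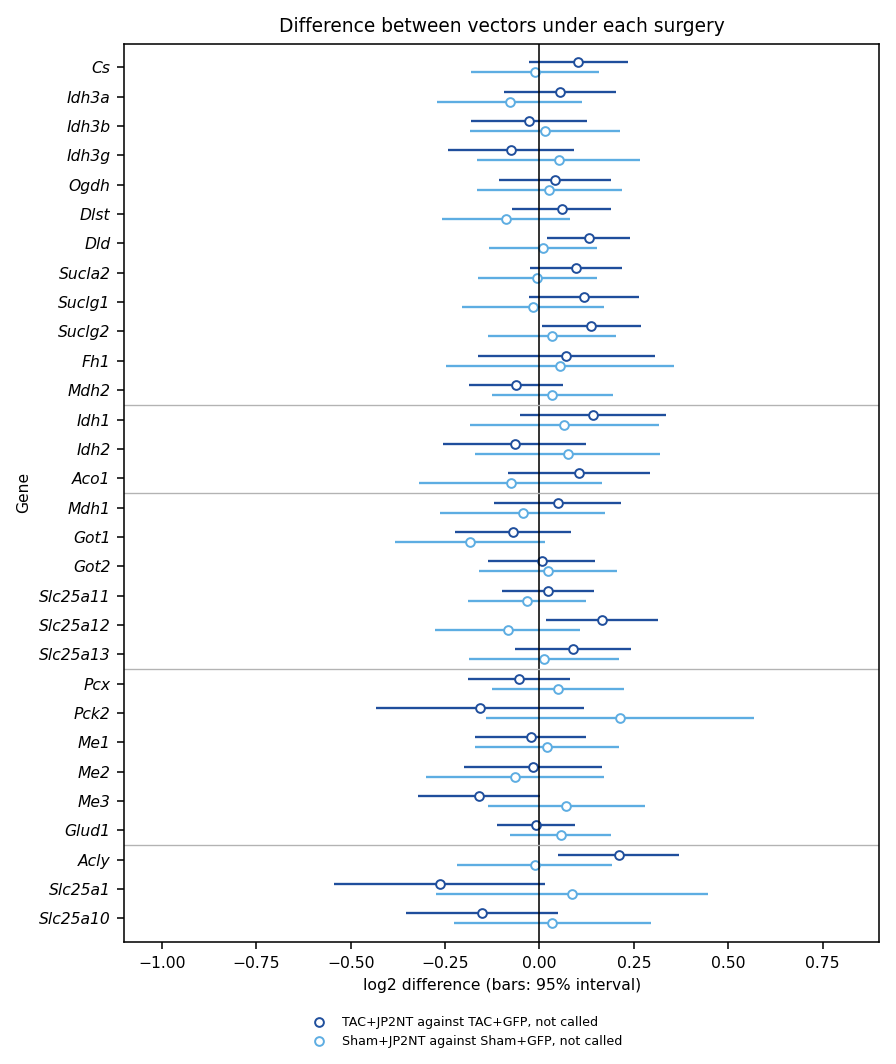
Log2 difference between JP2NT and GFP hearts with its 95% interval for each gene, under TAC (dark blue) and sham surgery (light blue). No point is filled, since no adjusted p was under 0.05, and the intervals run from -0.54 to 0.57.

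TAC+JP2NT replicate 4 bears on these values. It was the highest of its group for 25 of the 30 genes. Averaged over the 30, the log2 difference from the Sham+GFP mean was -0.42, -0.41 and -0.41 in TAC+JP2NT replicates 1 to 3 and -0.26 in replicate 4, where the TAC+GFP libraries lay between -0.41 and -0.36. Without it the median over the 30 genes between surgeries under JP2NT was -0.51 in place of -0.43, and none of the 30 was called between vectors.

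Markers of cardiomyocytes, the cell type expected to hold most of this RNA, were plentiful, with none of 12 at 0 in any library. Their summed level was 1259710 to 1298510 in Sham+GFP, 788388 to 904987 in TAC+GFP, 1243880 to 1266380 in Sham+JP2NT and 851293 to 1067030 in TAC+JP2NT, the last highest in replicate 4. Much of the decrease in that sum was Myh6, the adult myosin heavy chain, at a mean of 473831 in Sham+GFP and 169431 in TAC+GFP (log2 difference -1.49, adjusted p = 1.96e-05). Of the 12 markers 5 fell and 1 (Ttn) rose under GFP, and 4 fell and 1 rose under JP2NT, where 24.8% and 15.8% of all genes fell. The median log2 difference of the 12 was -0.20 under GFP, with 9 negative and 3 positive. Among the 6 that did not pass were the troponins Tnnt2 (-0.08) and Tnnc1 (0.02), the myosin-binding protein Mybpc3 (0.03) and the actinin Actn2 (-0.11). Apart from Myh6, the markers that fell are not named here. Of 7 pericyte markers 5 fell under GFP and 2 under JP2NT, and of 5 smooth muscle markers 3 and 2 fell, their sum being 3339 to 3669.7 in Sham+GFP and 1782 to 2267 in TAC+GFP. Of 8 endothelial markers 4 fell under each vector and 1 rose under GFP, and of 8 macrophage markers 2 fell under GFP. Of 8 fibroblast markers 4 and 2 rose and 1 fell in each. Of 4 erythroid markers tested 3 and 1 rose, their sum being 6872 to 8488 in Sham+GFP and 15960.3 to 22189 in TAC+GFP, and T cell and B cell markers summed to at most 46.1 and 107 in any library. The part of cell composition in the results was not tested, and in whole ventricle fewer cells of a type and less RNA per cell cannot be told apart.

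Neighbouring steps of the pathway were read from 57 further genes, 53 of them tested. Under GFP 35 fell and 7 rose, with a median log2 difference of -0.47, and under JP2NT 26 fell and 1 rose (median -0.28). Of all genes 24.8% fell and 23.3% rose under GFP, and 15.8% and 16.1% under JP2NT. The subunits of succinate dehydrogenase behaved unevenly. Sdha fell under GFP and JP2NT (log2 differences -0.65 and -0.60), as did Sdhc (-0.59 and -0.55). Sdhd fell under GFP (-0.26) and stood at -0.17 under JP2NT (adjusted p = 0.152, and 0.0255 at -0.24 without TAC+JP2NT replicate 4), whereas Sdhb, the iron-sulphur subunit, stood at -0.02 and 0.04 (adjusted p = 0.903 and 0.896).

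Some single genes differed by more than any of the 30. Pdp2, a phosphatase that activates pyruvate dehydrogenase, fell under GFP and JP2NT (log2 differences -1.99 and -1.51), as did the mitochondrial glutamate carrier Slc25a22 (-1.84 and -1.17) and the alanine aminotransferase Gpt (-1.41 and -1.23, limma adjusted p at most 0.000228). Pdk3, a kinase that inhibits pyruvate dehydrogenase, rose by 0.93 under GFP and stood at 0.38 under JP2NT (adjusted p = 0.275). Pdk4, another such kinase, stood at -0.95 and -0.97 and passed in neither (adjusted p = 0.102 and 0.176). It did under GFP without TAC+GFP replicate 1 (-1.25, adjusted p = 0.0432) or 2 (-1.31, adjusted p = 0.0265), and without TAC+GFP replicate 3 it did so under JP2NT (adjusted p = 0.033) and differed between vectors in TAC hearts, lower with JP2NT (-1.09, adjusted p = 0.0363). The glycerol phosphate shuttle, the other route for cytosolic NADH, held 3 genes, all lower under GFP, with log2 differences of -0.62 for Gpd2, -0.54 for Gpd1l and -0.48 for Gpd1. Under JP2NT Gpd1l (-0.38) and Gpd2 (-0.42, adjusted p = 0.0295) fell and Gpd1 stood at -0.30 (adjusted p = 0.108). There the call of Gpd2 was lost without Sham+JP2NT replicate 3 (0.0622) or TAC+JP2NT replicate 3 (0.0561), and Gpd1 passed without TAC+GFP replicate 3 (0.0411). These 3 were named after their values were seen.

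Of these 53 genes 7 differed between TAC+JP2NT and TAC+GFP, 5 higher and 2 lower, against 2.75% and 3.4% of all genes. Whether the 53 genes differ from the 30 in this was not tested. Of the 7, Aldh5a1, Slc25a22 and Mmaa were named after their values were seen. Aldh5a1, which turns succinic semialdehyde into succinate, read 307, 361, 337 and 319 in TAC+GFP and 451, 451, 404 and 483 in TAC+JP2NT libraries, against 696, 677 and 726 in Sham+GFP. All TAC+JP2NT libraries lay between the TAC+GFP and the sham libraries, 1.35-fold above TAC+GFP (limma adjusted p = 0.00456), a call kept in every alternative analysis. Gpt2, mitochondrial alanine aminotransferase, was higher by 0.50, Slc25a22 by 0.46, Pdp2 by 0.52 and Mmaa, which serves cobalamin-dependent methylmalonyl-CoA mutase, by 0.26 (adjusted p at most 0.0329). Glul, glutamine synthetase, was lower with JP2NT (log2 difference -0.42), as was Adssl1, adenylosuccinate synthase of the purine nucleotide cycle in muscle (-0.32, adjusted p = 0.00834 and 0.00683). With replicates 1 and 2 of each TAC group averaged, the calls of Glul and Adssl1 were lost (limma adjusted p = 0.0681 and 0.0526). Those of Pdp2, Mmaa, Gpt2 and Slc25a22 were lost there too (0.0548, 0.139, 0.0871 and 0.0758). With only the TAC groups in the model, the call of Glul was lost (0.0588), as were those of Pdp2, Mmaa, Gpt2 and Slc25a22 (0.116, 0.108, 0.0833 and 0.0921). Pdp2 and Mmaa also lost theirs with a spread per group (0.0513 and 0.0712). The call of Pdp2 was lost without any 1 of Sham+GFP replicate 2, TAC+GFP replicates 2, 3 and 4 and TAC+JP2NT replicates 2 and 4 (adjusted p 0.0502 to 0.0785). That of Mmaa was lost without any 1 of Sham+GFP replicate 2, TAC+GFP replicates 1, 2 and 3, Sham+JP2NT replicate 3 and TAC+JP2NT replicates 1, 2 and 4 (adjusted p 0.051 to 0.113), that of Gpt2 without TAC+GFP replicate 1 or 2 (0.0523 and 0.0741) and that of Slc25a22 without TAC+GFP replicate 2 (0.06).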

How the data were processed

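Libraries were stranded and paired-end, made from poly(A) RNA of mouse ventricles, per the labels. The submitters' processing notes name FastQC 1.0.0, STAR 2.6.1a, Salmon and genome build mm10. Neither the annotation, nor Salmon's version, nor the scaling step is named there. The authors deposited 1 table of signal values, which are not whole and, from the values, look like gene counts divided by scale factors within the GFP and within the JP2NT libraries (joint rescaling divided by 1.02 to 1.03 and by 0.97 to 0.976). Within 0.001 of a whole number of reads lay at most 2.8% of a library's values, so reads could not be recovered and no count model was used.

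The 30 genes, the pathway and marker lists and the comparisons were chosen with earlier results of these data known. Values were rescaled jointly over the 14 libraries by unweighted trimmed means of M-values (30% of ratios and 5% of levels trimmed). Genes at 10 or more in at least 3 samples were tested on log2(value + 1), a scale that understates changes of low genes, with limma-trend (limma 3.58.1, R 4.3.3), a mean per group, 1 shared spread, 9 residual and 5.71 prior degrees of freedom, and Benjamini-Hochberg adjustment over all 13212 genes, two-sided. The median log2 SD of the 30 genes was 0.029 and 0.03 in the sham groups (GFP, JP2NT) and 0.086 and 0.1 in the TAC groups. The test was also run on simulated data with the same dispersion in all groups, which does not check it for groups of unequal spread such as these. Ratios of gene pairs were tested with exact permutation tests over samples. All 30 genes are named, with every library's value for the 3 of each role with the largest difference under GFP and for genes that rose. Of the other pathway genes the rule names the succinate dehydrogenase subunits, Pdk4 and up to 2 called genes with the largest difference per direction and comparison, and any further one is marked. Some genes that the rule names are not reported here. It also names the 5 genes most like the mean of the 30. Exon lengths came from GENCODE M21 (GRCm38). How reads shared with pseudogenes or paralogs were assigned is not given in these sources, so such reads leave levels uncertain. Alternatives were other scalings, added values, filters, treatments of close replicates and of the spread, and leaving out each library. Figures were drawn with matplotlib 3.10.9, and pandas 2.3.3 and Python 3.11.15 prepared the tables.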

Additional observations from a re-analysis of the deposited data

Results flagged for a closer look

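In 60 groups of 4 values (30 genes in TAC+GFP and in TAC+JP2NT), a single library stood apart from the other 3 by more than the 95% critical share (Dixon) of the group's range in 5. Chance alone marks about 5% of groups, or 1 in 20. Idh2 was highest in TAC+GFP replicate 3 at 29888, with the rest of the group at 22591 to 22737. Idh3g was highest in TAC+GFP replicate 4 at 5948 (others 5239 to 5315). Glud1 was lowest in TAC+GFP replicate 1 at 1813 (others 1856 to 1861), a gap of small size in a tight group. Idh1 was highest in TAC+JP2NT replicate 4 at 749 (others 535 to 563), as was Mdh1 at 32264 (others 25362 to 26496). Replicate 4 of TAC+JP2NT thus gave 2 of the 5.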

How the results depend on the processing

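Leaving out each of the 14 libraries gave 21 to 26 of the 30 genes called between surgeries under GFP and 20 to 27 under JP2NT, and 13 other settings gave 23 to 27 and 22 to 27. No called gene changed direction, and between vectors and in the interaction 0 of the 30 were called throughout. Signs of uncalled differences were not compared. Beside the genes named in the report, the call of Slc25a1 under GFP was lost with no filter on low values (adjusted p = 0.0581) and with replicates 1 and 2 of each TAC group averaged (0.0878), those of Fh1 and Me1 with no trend in the spread (0.0579 and 0.06), that of Me1 under JP2NT with those averages (0.0607) and no trend (0.0673), and that of Dld under JP2NT when other groups were left out of the model (0.0735). With 14 separate libraries Idh3b, Fh1, Idh2 and Pck2 were called under JP2NT (adjusted p 0.0195 to 0.0291). With a spread per group the same 4 were called there, and Idh3b and Acly under GFP (0.0392 and 0.0403). With values as deposited, the 30 genes were lower with JP2NT in 20 cases and higher in 10 in TAC hearts, and 27 and 3 in sham hearts, in place of 13 and 17, and 12 and 18. The median of all genes was -0.08 in both. Same-numbered libraries did not vary together (r of -0.17 to 0.076 in 19 pairs, none over 0.1), so no pairing by replicate number was seen. Whether same-numbered libraries were processed together was not tested. With the replicate number as a block over 14 libraries, 26 genes were called under GFP and 27 under JP2NT, with 0 in the other comparisons, and over all genes 77 in place of 10 in the interaction. The 812 genes called of all between vectors in TAC hearts became 1417 with values as deposited and 158 to 468 with averaged TAC replicates, compared groups only, a spread per group or no trend. They were 270 to 1077 with single libraries left out, with 270 and 373 without TAC+GFP replicate 2 and 1, and 450 and 515 without TAC+JP2NT replicate 2 and 1. The 4221 called under JP2NT became 1894 without Sham+JP2NT replicate 3, and the 10 of the interaction 0 to 127. Between vectors in sham hearts 0 to 2 were called. The 7 other pathway genes called between vectors became 1 to 10. No protein sequence was used here. Depth limits Pck2, Slc25a1 and Me2 most, since they had the fewest reads of the 30.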

Other observations

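Over the 13 samples, the genes whose log2 values followed the mean of the 30 most closely were Atp5a1, a subunit of ATP synthase (Pearson r 0.996), Immt, a mitochondrial inner membrane organiser (0.993), Uqcrc1, a core subunit of complex III (0.993), Pygm, muscle glycogen phosphorylase (0.992), and Atp5g2, another ATP synthase subunit (0.991). All 5 fell under GFP, with log2 differences of -0.61, -0.38, -0.69, -0.98 and -0.48 in that order (limma adjusted p at most 0.000207). With the group means removed the r were 0.911, 0.959, 0.84, 0.882 and 0.853. These are descriptions over samples that fall into separate surgery groups.

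Genes that handle products beside the cycle also moved. Nnt, the transhydrogenase that makes matrix NADPH as Idh2 does, fell under GFP and JP2NT (log2 differences -0.63 and -0.80, limma adjusted p = 0.00295 and 0.003). D2hgdh, which oxidises D-2-hydroxyglutarate back to oxoglutarate, fell under GFP and JP2NT (log2 differences -0.85 and -0.79). Of 10 genes for entry of propionate, ketone bodies and acetate, 7 fell under GFP and 5 under JP2NT, where 24.8% and 15.8% of all genes fell. Among them were Pcca (-0.64 and -0.45) and Mut (-0.55 and -0.46), which lead propionate to succinyl-CoA. Oxct1 and Acat1, which act on ketone bodies, stood at -0.06 and -0.13 under GFP (adjusted p = 0.517 and 0.248). Bdh1, the third gene of that route in the list, had positive differences, 0.41 under GFP (adjusted p = 0.0636) and 0.52 under JP2NT (adjusted p = 0.0588). It passed under GFP without TAC+GFP replicate 4 (adjusted p = 0.0144) or TAC+JP2NT replicate 4 (0.0291). Under JP2NT it passed without TAC+GFP replicate 3 or 4, Sham+JP2NT replicate 1 or TAC+JP2NT replicate 4 (0.00898 to 0.0498). Under JP2NT Acat1 stood at -0.17 and was lower without TAC+JP2NT replicate 4 (-0.26, adjusted p = 0.0227). The genes named in this paragraph, Idh2 aside, were chosen after their values were seen.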
